A study of Mus musculus with 3 samples.

Results

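Cadherins, protocadherins and catenins were read as a gene set in 3 stromal populations sorted from the mouse mesenteric lymph node, the node that drains the gut. A gene belonged to the set if its name in the scanner files began with Cdh, Dsc, Dsg or Fat followed by a digit, or with Pcdh, Dchs, Celsr or Ctnn. This rule used names only, and it gave 98 of 28084 gene names, carried by 179 of 41156 probes. Each gene was represented by the probe with the highest mean signal over the 3 arrays. Several probes were present for 47 members and 1 probe for the other 51.

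All cells came from wild-type C57BL/6NCrl mice. Per the labels, nodes were digested with collagenase, CD45-bearing cells were depleted on magnetic columns, and CD45- CD24- cells were sorted by gp38 and CD31. Fibroblastic reticular cells (FRC), which build the fibre network of the node, were gp38+ CD31-. Lymphatic endothelial cells (LEC), which line the lymph sinuses, were gp38+ CD31+. Blood endothelial cells (BEC), which line the vessels, were gp38- CD31+. The mean purity stated for the sorted subsets was 88% ± 1.5, with the kind of error not stated, and the labels do not say how many animals went into each RNA.

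Each population had 1 single-colour array, and all 3 arrays lay on 1 slide, so differences between populations carry no replicate error and were not tested. A value is log2 of the signal minus log2 of the 75th percentile of its own array, and it was read against the same probe on the other arrays, never against another probe. The scanner software marks probes as well above background. A gene was called higher at 4-fold or more, and where all its probes were dim on the lower array (not well above background) the fold is a lower bound, written "at least". Spike-in slopes in the file headers were 0.821 (FRC), 1.00 (LEC) and 0.919 (BEC), and the FRC slope lay outside the range set by the software. In RNA from sorted pools, fewer cells of a type and less RNA per cell cannot be told apart.

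The labels were set against marker genes. Of 9 FRC markers, 8 were called higher in FRC than in LEC and 9 higher in FRC than in BEC. Between the endothelia, 3 of the 9, Ccl19, Dcn and Pdpn, were called higher in LEC and 0 in BEC, with a median LEC minus BEC of 1.90 log2 units. Pdpn is also on the lymphatic list and encodes gp38, which the sort used to part LEC and FRC from BEC. Its differences from BEC therefore follow from the sort. The part of FRC RNA on the LEC array was not tested. All 7 blood endothelial markers were called higher in BEC than in FRC and 4 higher in BEC than in LEC, and of 6 lymphatic markers 4 were called higher in LEC than in FRC, 4 higher than in BEC and 3 higher than in both. Against FRC, 4 lymphatic markers were also called higher in BEC and 1 lower, and all 7 blood endothelial markers higher in LEC. The 7 include Pecam1, which encodes CD31, so its differences from FRC follow from the sort as well. Ccl21a, a lymphatic marker also made by FRC, was called lower in LEC than in FRC and BEC. Mesothelial markers were highest on the FRC array, where their summed signal was 9.21 times the 75th percentile against 2.94 in LEC and 2.46 in BEC. For 8 epithelial markers the sums were 8.26, 5.67 and 3.66, and for 8 mural markers 82.7, 59.3 and 49.1. Leukocyte sums were 1.99, 2.72 and 3.63, adipocyte sums 2.28, 1.24 and 3.70, and platelet sums 2.73, 20.3 and 8.60. Of the 3 platelet markers, Itga2b and Pf4 were called higher in LEC than in FRC. Gp9 went the other way, at -2.55 in FRC, -6.03 in LEC (dim) and -4.19 in BEC.

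Cadherins are calcium-dependent adhesion proteins built from repeated extracellular domains. Classical cadherins bind the same cadherin on the next cell, and their cytoplasmic tails hold beta-catenin, which links through alpha-catenin to actin. Desmosomal cadherins tie instead to intermediate filaments, while Fat, Dachsous and Celsr cadherins act in growth control and planar cell polarity. Protocadherins form the largest family. Those of the alpha, beta and gamma gene clusters are known best for neuronal recognition. Endothelium is known for VE-cadherin, the product of Cdh5, which seals the junctions between its cells.

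The calcium-binding motif that joins neighbouring cadherin repeats, aspartate, any residue, asparagine, aspartate, asparagine, could be read in the probe sequences themselves. Its codons were present in 3 of 179 member probes (1.68%) and in 7 of all 41156 probes (0.017%). The 3 are shown, 5′ to 3′ on mm9 with the motif in capitals, because they place these probes in the adhesive part of the protein. The Cdh11 probe is also the one on which that gene's result turns.
Cdh11, chr8:105191906-105191965, minus strand: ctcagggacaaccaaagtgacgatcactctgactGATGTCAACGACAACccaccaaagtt
Cdh4, chr2:179581965-179582024, plus strand: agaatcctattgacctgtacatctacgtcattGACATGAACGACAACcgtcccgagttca
Pcdh19, chrX:130220413-130220472, minus strand: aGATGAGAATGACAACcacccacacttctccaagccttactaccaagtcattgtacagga

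Of the 98 members, 79 (80.6%) were well above background on at least 1 array, against 68.2% of all gene names. There were 56 such members on all 3 arrays and 19 on none. FRC showed the widest set, with 74 members detected against 64 in LEC and 60 in BEC. The FRC array alone detected 12 members, or 12.2% of the set, whereas 2.98% of all gene names were detected there alone. Those 12 were Cdh8, Fat2, Dsc3, Dsg1a, Dsg1b, Dsg1c, Pcdh9, Pcdh10, Pcdh11x, Pcdh21, Pcdh24 and Pcdhb11. Cdh6 and Ctnnd2 were detected on the LEC array alone, and Cdh18 and the locus name Pcdhg@ on the BEC array alone.

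In all, 18 members were called in at least 1 comparison. Between LEC and FRC, 77 members could be compared. Higher in LEC were 6 of them, Cdh5, Cdh13, Celsr1, Pcdh12, Pcdh17 and Ctnnal1, or 7.79% of those compared, where 4.89% of all genes compared were called in that direction. Higher in FRC were 8, Fat1, Dsc2, Dsg1a, Pcdh9, Pcdh18, Pcdh19, Pcdh20 and Pcdh21, or 10.4% against 5.93% of all genes. Of these 8, 4 were bounds, dim in LEC, so a call could only place them toward FRC. The shares of all genes include such bounds too. With both arrays required above background, 6 of 61 members were higher in LEC and 4 in FRC, beside 699 and 841 of 16176 genes. The median log2 difference over members, LEC minus FRC, was 0.30, and over all genes 0.03.

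Between BEC and FRC, 77 members were compared as well. Higher in BEC were 6, Cdh5, Cdh18, Celsr1, Ctnnbip1, Pcdh12 and Pcdh17, or 7.79% against 6.58% of all genes. Higher in FRC were 8, Cdh22, Fat1, Dsc2, Dsg1a, Pcdh9, Pcdh15, Pcdh18 and Pcdh21, or 10.4% against 7.57% of all genes. Of these 8, 5 were bounds, as was 1 of the 6 higher in BEC, and the filter fixed the direction of bounds. With both arrays required above background, 5 of 57 members were higher in BEC and 3 in FRC, beside 937 and 1019 of 15993 genes. The members' median was -0.24 and that of all genes 0.09. This median has no stable sign, since it was 0.37 when both arrays had to be well above background and 0.12 after a correction for the spike-in slopes. LEC and BEC are both set against the same FRC array, so their shared calls are not separate observations.

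The endothelia differed less from each other. Of 67 members compared, Cdh22 and Pcdh15 were called higher in LEC (2.99%, against 3.39% of all genes), and Cdh18, Ctnnbip1 and Pcdh19 higher in BEC (4.48%, against 3.38%). Among these, Pcdh15 and Cdh18 were bounds. With normexp background correction, which draws dim signals together, the members called were 6 higher in LEC and 3 in FRC, 5 in BEC and 4 in FRC, and 0 in LEC and 2 in BEC. Calls fell over all genes as well, to 550 and 636 of 18441, 740 and 854 of 18833, and 287 and 324 of 18325. Calls lost that way were Dsc2, Dsg1a, Pcdh9, Pcdh20 and Pcdh21 between LEC and FRC; Cdh18, Cdh22, Dsc2, Pcdh9 and Pcdh21 between BEC and FRC; and Cdh18, Cdh22 and Pcdh15 between LEC and BEC. Averaging all detected probes of a gene ended the LEC and FRC calls of Cdh13 (1.02), Fat1 (-1.85) and Pcdh12 (1.76) and the LEC and BEC calls of Pcdh15 (0.95) and Pcdh19 (-1.53), given as log2 differences, LEC first.

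**Figure D1:**
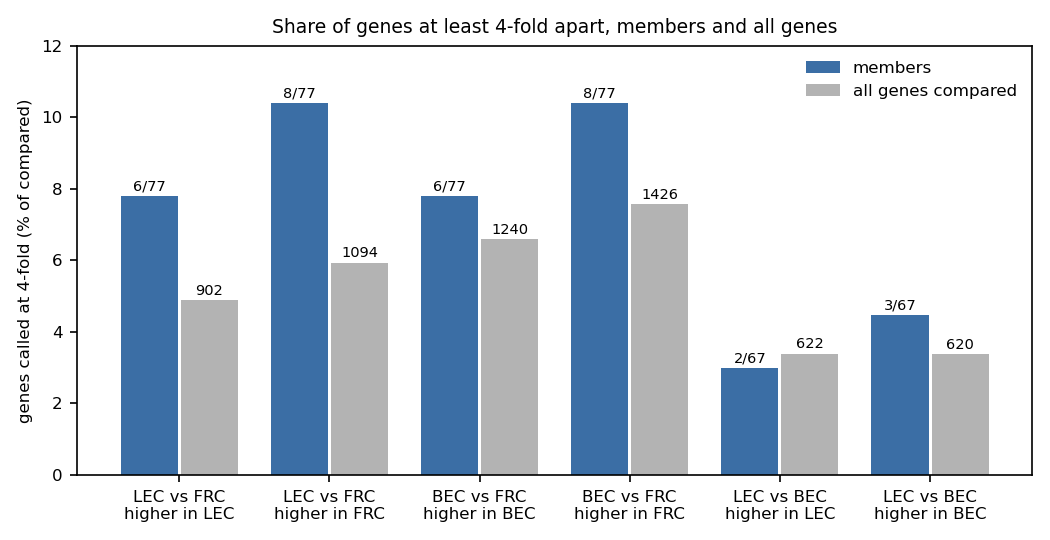
Bars give the percentage of genes called at least 4-fold higher in the named population, for the set's members (blue, with called and compared counts above) and for all genes compared (grey, with the count called above). Member shares ran from 2.99% to 10.4% and shares of all genes from 3.38% to 7.57%.

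The type II cadherins include VE-cadherin. Cdh5 read 0.38 in FRC, 5.76 in LEC and 6.83 in BEC, so both endothelia were far above FRC. LEC exceeded FRC by 41.6-fold and BEC exceeded it by 87.7-fold, and between the endothelia the difference was 2.10-fold toward BEC. Its second probe read -3.38, 3.14 and 3.98, the same pattern at a lower signal. The Cdh5 probes lie at chr8:106668159-106668218 and chr8:106667499-106667558 on the plus strand.

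Cdh11, the cadherin of mesenchymal and osteoblast cells, gave opposite answers with different probes. The probe chosen by signal, shown above, read -0.84 in FRC, 0.80 in LEC and 0.47 in BEC. FRC was 3.12-fold below LEC and 2.48-fold below BEC on it. In the files this probe also lists 2 transcribed pseudogenes, 2610005L07Rik and 6820431F20Rik. The other 2 Cdh11 probes, which list Cdh11 alone, read 2.76, -0.74 and -3.55, and 2.49, -1.34 and -3.89, with FRC highest and BEC lowest on both. On the log2 scale, LEC minus FRC was -3.50 and -3.83 on these probes, and BEC minus FRC was -6.31 and -6.38. These probes lie at chr8:105157896-105157955 and chr8:105157473-105157532, downstream of the shared probe on the minus strand.

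Probes named for the pseudogenes were read for comparison, a choice made after the Cdh11 values were seen. Those well above background on all arrays read 0.93, 1.68 and 1.34; -0.44, 0.42 and -0.59; and 1.38, 2.69 and 1.87 in FRC, LEC and BEC. Each was higher in LEC than in FRC, by 0.75 to 1.31 log2 units, in the same direction as the shared Cdh11 probe. The part of pseudogene transcripts in the shared probe's signal was not tested.

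Among the other type II cadherins, Cdh22 read -0.996 in FRC, -0.89 in LEC and -3.28 in BEC. It was 4.86-fold higher in FRC than in BEC and 5.25-fold higher in LEC than in BEC, from 1 probe. Cdh18 was seen in BEC alone, at -1.64 against -5.36 in FRC and -5.96 in LEC, and was at least 6.51-fold and at least 5.91-fold higher in BEC. That reading came from a probe that lists no RefSeq transcript, and both RefSeq probes of Cdh18 were dim on all arrays. Cdh20 (-2.98, -2.95 and -3.01) and Cdh24 (-0.82, -0.90 and -0.91) were nearly level over the 3 arrays. Cdh6 was detected in LEC at -3.45 and Cdh8 in FRC at -3.92, both close to the lowest detectable signal. Cdh7, Cdh9, Cdh10, Cdh12 and Cdh19 were well above background on no array.

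No type I cadherin was called. Cdh2, N-cadherin of mesenchyme and neurons, read 0.55 in FRC, -0.80 in LEC and -0.96 in BEC, which is 2.56-fold and 2.85-fold higher in FRC. Cdh4, R-cadherin, was the reverse, with LEC highest at 1.14 against -0.71 in FRC and -0.30 in BEC. Its second probe, at -4.07, -1.43 and -2.99, kept that order, and the probe whose repeat motif is shown above was dim on all arrays. Cdh1, the epithelial E-cadherin, was low at -2.71 in FRC and -2.81 in LEC and was not well above background in BEC at -5.03. The epithelial marker Epcam was likewise at -2.59, -3.64 and -6.27, with the last not above background. Cdh3 (-3.17, -3.67 and -3.86) and Cdh15 (-3.95, -3.65 and -4.19) stayed within 2-fold over the arrays.

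Cdh13, or T-cadherin, lacks a cytoplasmic tail and is anchored to the membrane by a lipid. It read 2.57 in FRC, 4.72 in LEC and 4.49 in BEC, high in both endothelia. LEC was 4.44-fold and BEC 3.77-fold above FRC, so only the first difference passed 4-fold. Its other probe, which lists no RefSeq transcript, was near background at -4.03, -4.14 and -4.62. Cdh16 (-4.06, -3.37 and -3.63) and Cdh23, the cadherin of hair cell tip links (-4.50, -3.80 and -3.87), were near the floor, and Cdh17, Cdh26 and Cdh29 were not above background on any array.

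**Figure D2:**
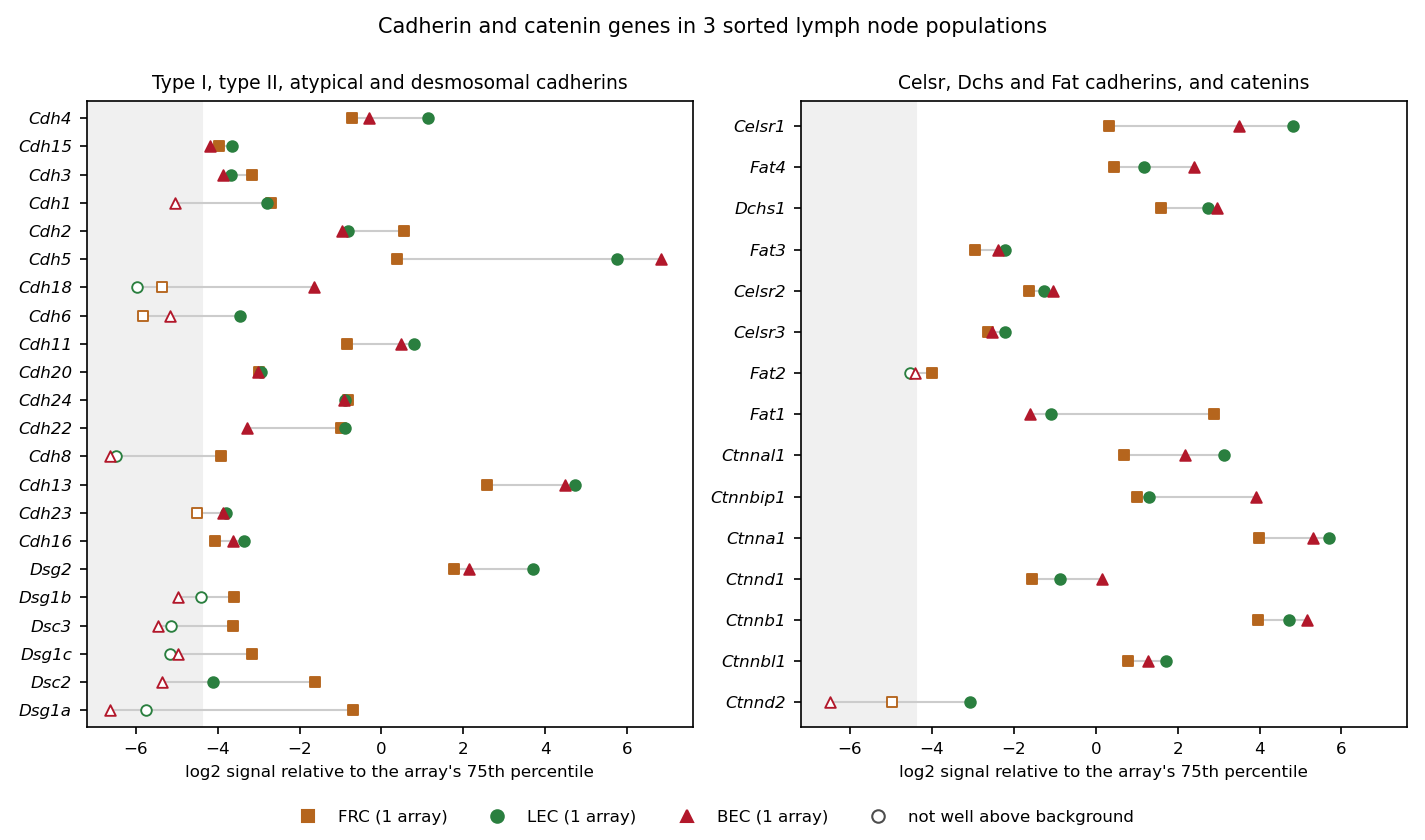
Each line is 1 gene and each symbol its log2 signal on 1 array relative to the 75th percentile (FRC squares, LEC circles, BEC triangles), with open symbols for signals not well above background and grey shading below -4.38, the lowest value well above background on any array. Cdh5, Cdh13 and Celsr1 have FRC on the left, whereas Fat1, Dsc2 and Dsg1a have FRC on the right.

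Desmosomal cadherins separated into 1 broadly expressed gene and a group seen in FRC. Dsg2, the desmoglein found in most tissues that have desmosomes, read 1.77 in FRC, 3.70 in LEC and 2.14 in BEC, 3.80-fold higher in LEC than in FRC. All 4 Dsg2 probes were highest in LEC, with LEC minus FRC differences of 1.49 to 1.93 log2 units. Dsc2, a desmocollin, read -1.63 in FRC, -4.11 in LEC and -5.36 in BEC, with the last not above background. It was 5.59-fold higher in FRC than in LEC and at least 6.72-fold higher than in BEC, and its other 2 probes read -1.93 and -1.83 in FRC and were dim on both endothelial arrays.

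Dsg1a, a desmoglein of stratified epithelium, read -0.68 in FRC and was dim in LEC (-5.75) and BEC (-6.62), at least 11.4-fold and at least 12.9-fold higher in FRC. Dsc3 (-3.63), Dsg1c (-3.15) and Dsg1b (-3.61, on a probe shared with Dsg1c) were also detected on the FRC array alone, with bounds below 4-fold. Dsc1, Dsg3 and Dsg4 were dim everywhere. The 4 genes detected in FRC alone entered the comparison through that array, so their direction was fixed, and of the desmosomal genes only Dsc2 and Dsg2 were detected in a second population.

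Markers of cells that build desmosomes were read beside these values. Of 6 mesothelial markers, 2 were called higher in FRC than in LEC and 5 higher in FRC than in BEC, among them Wt1 at 0.76 in FRC and dim on both endothelial arrays. Of the 8 epithelial markers, 7 could be compared between BEC and FRC and 3, Krt8, Krt18 and Cldn7, were called higher in FRC. Between LEC and FRC, 0 of the 8 were called higher in FRC and 1, Cldn4, was higher in LEC, at least 10.4-fold. Krt5 (-1.95, -1.75 and -1.27) and Krt14 (-1.15, -1.55 and -1.21) were within 2-fold over the arrays, and Krt19, which is on both lists, was level between FRC and BEC (0.93 and 0.90). The desmosomal linker gene Dsp, desmoplakin, read -1.33, -2.80 and -4.19 and was 7.27-fold higher in FRC than in BEC. The part of mesothelial or epithelial RNA in the FRC readings of Dsc2, Dsg1a and Cdh1 was not tested.

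Celsr1, a large cadherin with a seven-pass membrane domain that orients cells in planar polarity, was the endothelial member of the Fat, Dchs and Celsr group. It read 0.31 in FRC, 4.81 in LEC and 3.51 in BEC, so LEC was 22.6-fold and BEC 9.14-fold above FRC. The single Celsr1 probe lies at chr15:85729381-85729440 on the minus strand. Celsr2 (-1.63, -1.26 and -1.05) and Celsr3 (-2.64, -2.23 and -2.52) differed by less than 2-fold on the probes used. Another Celsr2 probe read -3.69, -1.21 and -3.30, with LEC above both other arrays.

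Fat1 ran the other way. This giant cadherin, a regulator of actin and of growth control, read 2.88 in FRC, -1.09 in LEC and -1.61 in BEC. It was 15.7-fold higher in FRC than in LEC and 22.5-fold higher than in BEC. A second probe gave -0.60, -2.19 and -2.06, the same direction with a smaller difference of 1.58 log2 units between FRC and LEC. Another, which lists no RefSeq transcript, was near background and did not separate FRC from LEC, at -3.84 and -3.83. The second probe reads through without a stop codon in 2 of its 3 frames and is shown because it gives the smaller difference. The probe used lies further along the gene, at chr8:46137481-46137540.
Fat1, chr8:46136199-46136258, plus strand: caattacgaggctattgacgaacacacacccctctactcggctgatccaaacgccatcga

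The Fat4 and Dchs1 products bind each other across cells as receptor and ligand, and both genes were modestly higher in endothelium. Fat4 read 0.46 in FRC, 1.18 in LEC and 2.39 in BEC, 3.83-fold higher in BEC than in FRC. Dchs1 read 1.60, 2.73 and 2.97, 2.20-fold and 2.58-fold higher in LEC and BEC. Second RefSeq probes kept both orders against FRC. Fat3 (-2.95, -2.22 and -2.38) varied by under 2-fold, Fat2 was detected in FRC only at -4.01, and Dchs2 was dim everywhere.

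Of 17 partner genes of planar polarity and of the Fat and Dachsous pathway on the array, 1 gene was called above FRC in LEC and again in BEC. It was Fzd6, a frizzled receptor that acts with Celsr1 in planar polarity, and it read -2.54 (FRC), 3.81 (LEC) and 2.42 (BEC). Fzd3 was called higher in FRC than in BEC, at least 5.03-fold, and Ctgf higher in BEC than in LEC, 4.16-fold. These single calls are 5.9% of the list, against 4.89% of all genes higher in LEC than in FRC, 6.58% higher in BEC than in FRC, 7.57% the other way and 3.38% higher in BEC than in LEC. Vangl1 (3.05, 3.83 and 2.74), Vangl2 (1.15, 1.23 and -0.33) and Prickle1 (2.09, 2.32 and 2.80) were detected in all 3 populations and not called, and are named after their values were seen.

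All 14 protocadherins outside the gene clusters were detected in FRC, 8 in LEC and 7 in BEC. This subfamily held the most calls. Between LEC and FRC 7 of 14 members were called, against 10.8% of all genes compared. Between BEC and FRC 6 of 14 were called, against 14.2%. Among the called members, Pcdh9 and Pcdh21 were detected in FRC alone, which fixed their direction. Pcdh17 gave the largest difference of any member between arrays on the probes used, -3.27 in FRC, 2.16 in LEC and 3.83 in BEC. LEC lay 43.2-fold and BEC 138-fold above FRC, though the FRC value lay little above the lowest detectable FRC signal of -4.34. A second RefSeq probe read -3.46, 1.15 and 4.16, and a probe listing no RefSeq transcript was well above background in BEC alone. Pcdh12, known as vascular endothelial cadherin 2, read -0.50, 2.44 and 3.90, 7.64-fold and 21.1-fold higher in LEC and BEC than in FRC. Its second probe kept that order with smaller differences, at -4.57 (dim), -3.99 and -2.53.

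Pcdh18 and Pcdh19 were highest in FRC. Pcdh18 read 2.38 in FRC, -1.52 in LEC and -3.51 in BEC, a stepwise order, and was 14.9-fold and 59.0-fold higher in FRC. The 9 FRC markers had medians in the same order, at -4.13 for LEC minus FRC and -5.79 for BEC minus FRC. The part of FRC RNA in the LEC reading of Pcdh18 was not tested. Pcdh19, a partner of N-cadherin in adhesion, read 3.48 in FRC, -1.32 in LEC and 1.75 in BEC. It was 27.8-fold higher in FRC than in LEC and 8.35-fold higher in BEC than in LEC, and FRC and BEC differed by 3.32-fold. The second Pcdh19 probe, whose repeat motif is shown above, read -0.81, -1.96 and -1.96, so it kept FRC highest but showed no difference between the endothelia.

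The 3 promoters below were chosen because these protocadherins differ in opposite directions. They are RefSeq sequences of the 250 bases before the start, on GRCm38.p6, with motif matches in capitals. The motifs searched on both strands were the E2-box CAGGTG, bound by Snail and Zeb repressors, an ETS core CNGGAAG and the CCAAT box CCAAT, the last added after the sequences were seen. The promoter table held 37 of the 98 members in 45 windows. An E2-box was in 13.3% of member windows and 17.2% of all windows, an ETS core in 9 of 45 member windows and 26.6% of all, and a CCAAT box in 42.2% of member windows and 33.8% of all. Pcdh17 holds 2 CCAAT boxes read as ATTGG, Pcdh18 holds 1 next to an ETS core with which it forms an unbroken run of capitals, and Pcdh19 holds 1. No E2-box letters occur in these 3 windows.
Pcdh17, chr14:84443313-84443562, plus strand: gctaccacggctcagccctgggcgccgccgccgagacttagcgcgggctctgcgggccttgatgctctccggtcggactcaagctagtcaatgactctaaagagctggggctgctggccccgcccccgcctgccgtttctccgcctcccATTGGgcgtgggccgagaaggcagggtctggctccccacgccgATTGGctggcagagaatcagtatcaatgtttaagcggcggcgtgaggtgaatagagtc
Pcdh18, chr3:49757317-49757566, minus strand: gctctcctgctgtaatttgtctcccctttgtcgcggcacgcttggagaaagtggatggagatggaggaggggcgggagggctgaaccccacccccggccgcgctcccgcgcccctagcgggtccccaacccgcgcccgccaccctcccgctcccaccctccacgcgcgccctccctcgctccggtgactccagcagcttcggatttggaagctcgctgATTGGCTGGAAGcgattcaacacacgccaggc
Pcdh19, chrX:133688994-133689243, minus strand: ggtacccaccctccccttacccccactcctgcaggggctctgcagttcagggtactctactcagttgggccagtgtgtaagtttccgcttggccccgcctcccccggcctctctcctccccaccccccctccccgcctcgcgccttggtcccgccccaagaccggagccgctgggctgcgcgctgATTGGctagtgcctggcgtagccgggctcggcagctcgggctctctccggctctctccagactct

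Pcdh9, a protocadherin known from brain, was detected in FRC on 4 of its 5 probes and in neither endothelium. The 4 read -1.26 to -2.66 in FRC, the probe used lists no RefSeq transcript, and the gene was at least 6.29-fold and at least 7.13-fold higher there than in LEC and BEC. The probe shown reads through without a stop codon in 1 frame, lists Pcdh9 in RefSeq and read -1.59 in FRC, -6.46 in LEC and -5.89 in BEC.
Pcdh9, chr14:94286116-94286175, minus strand: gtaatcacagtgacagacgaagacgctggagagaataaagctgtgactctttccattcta

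**Figure D3:**
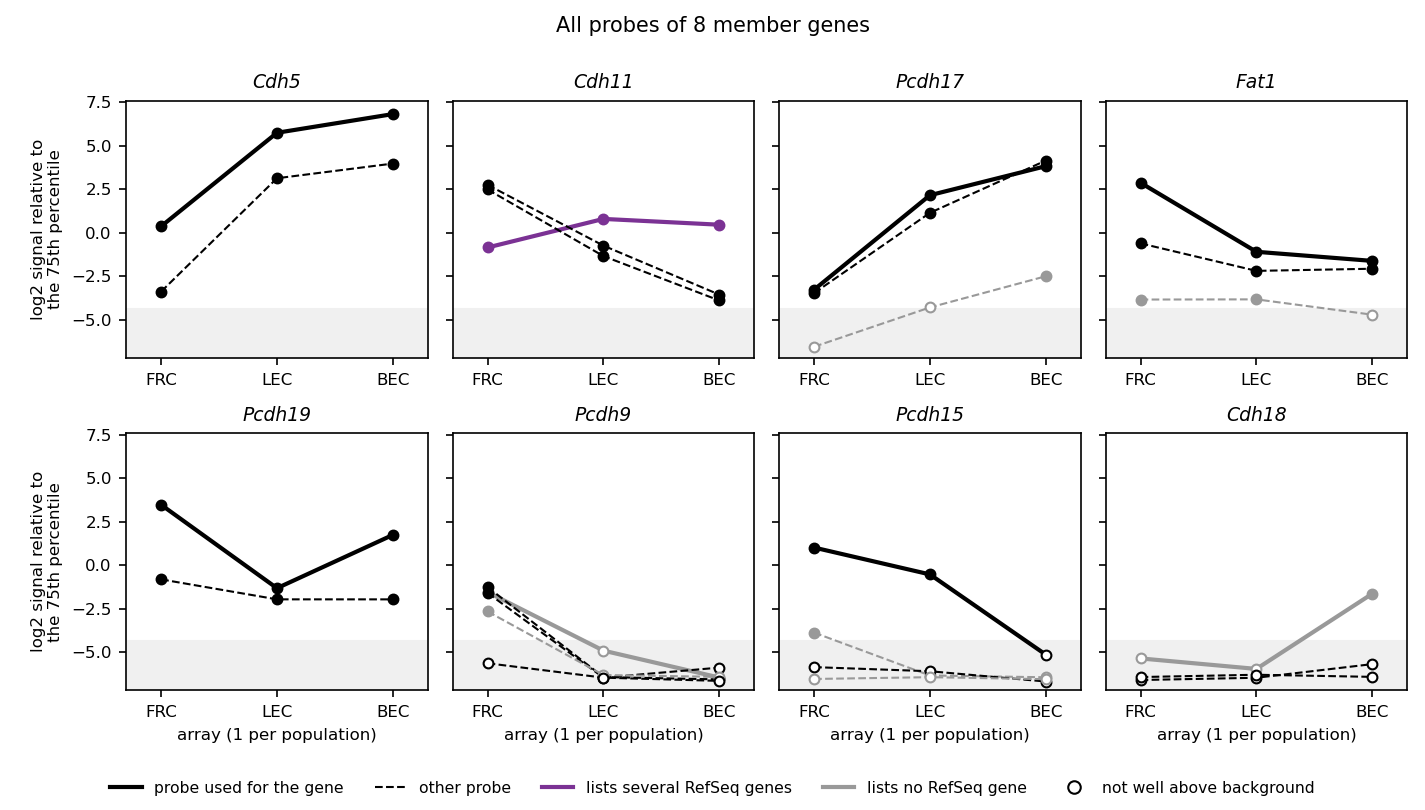
Log2 signal of every probe of 8 members on the 3 arrays, with the probe used for the gene as a thick line, other probes dashed, probes listing no RefSeq gene in grey and the Cdh11 probe that lists several genes in purple; open circles are not well above background. Cdh5 and Pcdh17 probes climb from FRC to BEC, 2 Cdh11 probes descend while the purple one does not, and Cdh18 rests on a grey probe.

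Pcdh20 was absent from the LEC array's detected genes and present on the other arrays, with values of -0.88 (FRC), -6.48 (LEC) and -2.40 (BEC). It was at least 9.98-fold higher in FRC than in LEC and 2.87-fold higher than in BEC. Pcdh15, the partner of Cdh23 in hair cell tip links, read 1.02 in FRC, -0.53 in LEC and -5.14 in BEC. BEC was below the floor, so FRC was at least 42.1-fold and LEC at least 14.4-fold higher. The part of FRC RNA in the LEC reading of Pcdh15 was not tested. A second probe was detected in FRC alone at -3.87, and the other 2 were dim on all arrays. Pcdh21, now named Cdhr1, read -1.21 in FRC and was dim in LEC at -4.20 and in BEC at -6.50, at least 7.95-fold and at least 9.002-fold higher in FRC.

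Pcdh1 (2.15, 2.33 and 2.75) and Pcdh7 (0.83, 1.23 and 0.07) were present on all arrays with differences under 4-fold. Pcdh8 (-3.59, -4.14 and -6.67), Pcdh10 (-3.59 in FRC), Pcdh11x (-2.91 in FRC) and Pcdh24, now Cdhr2 (-4.10 in FRC), were low in FRC and not called. Neural markers were set beside these FRC readings because many protocadherins are known from nervous tissue. Of 7 Schwann and neural markers, S100b and Mbp were called higher in FRC than in both endothelia. Sox10 differed by at most 1.09-fold between FRC and either endothelium. Summed over the 7, the signal was 5.22 times the 75th percentile in FRC against 2.78 in LEC and 2.50 in BEC. The part of neural RNA in the FRC readings was not tested.

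**Figure D4:**
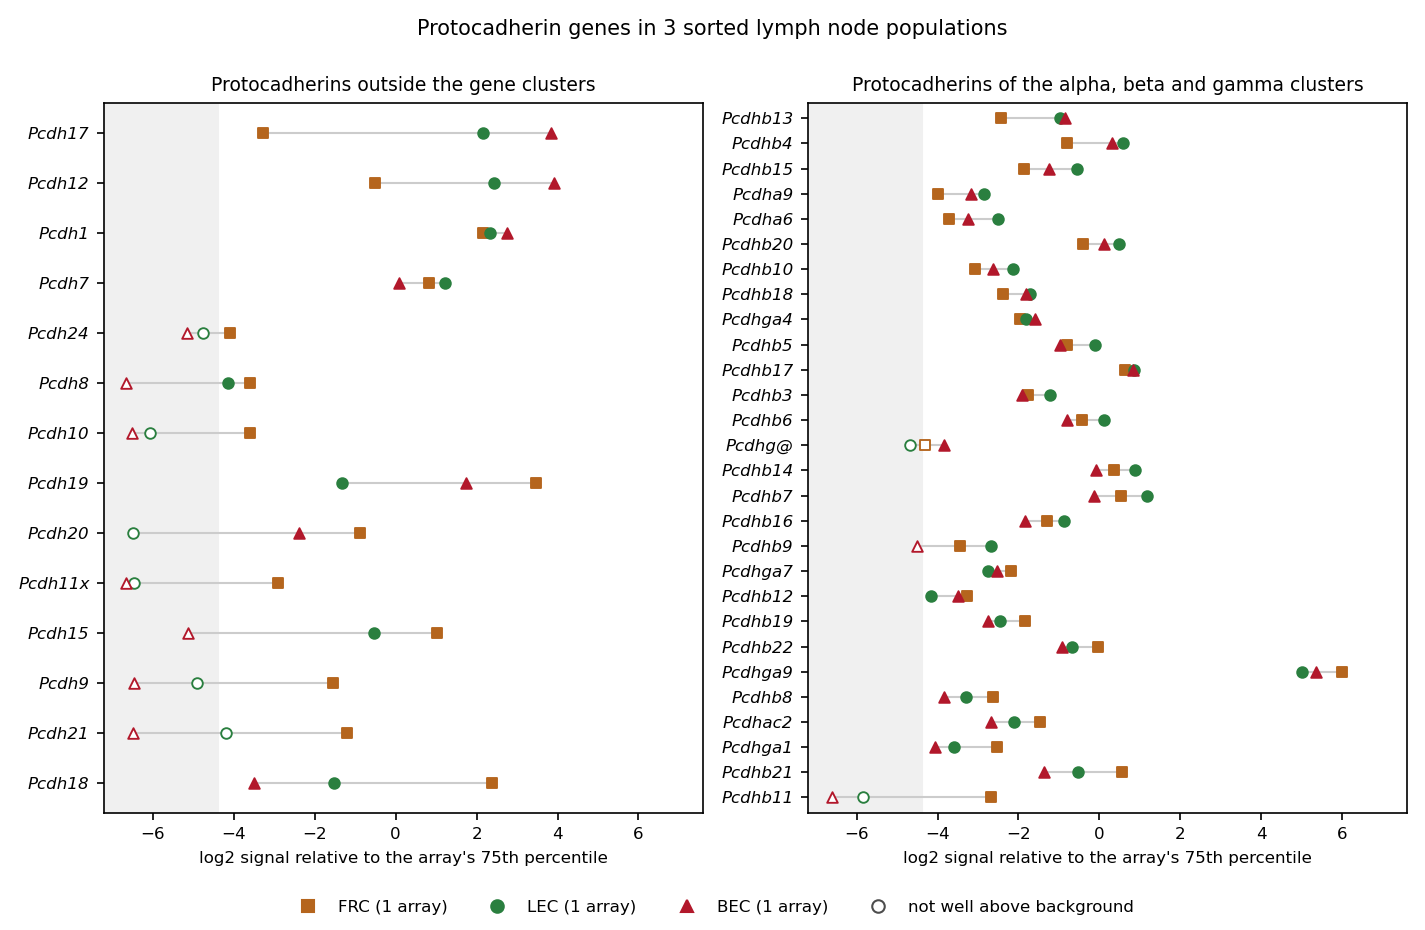
Log2 signal relative to the 75th percentile for protocadherins well above background on any array, outside the clusters (left) and within them (right), with symbols as FRC squares, LEC circles, BEC triangles, and open where not well above background. On the left the spread between arrays reaches from -3.27 to 3.83 for Pcdh17, and on the right most genes have their 3 symbols close together.

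The clustered protocadherins comprised 4 alpha, 22 beta and 7 gamma names, of which 28 were detected on at least 1 array and 25 on all. Called were 0 of 27 between LEC and FRC, 0 of 28 between BEC and FRC and 0 of 27 between LEC and BEC, against 10.8%, 14.2% and 6.8% of all genes compared, and this contrast was not tested. These counts hold for the probes used, and both other Pcdhac2 probes passed 4-fold toward FRC. In the beta cluster, whose genes are each a single exon, 18 were detected on all arrays. Within 2-fold were 14 of the 18 between LEC and FRC (77.8%) and 17 between LEC and BEC (94.4%), against 76.4% and 81.0% of all genes detected on all arrays, so the first share is near the general one. LEC was above BEC for 16 of the 18 (88.9%, against 45.3% of all such genes), with a median of 0.52 log2 units against -0.07 for all genes. Other scalings gave 15 or 16 of 18 and medians of 0.36 to 0.78. BEC minus FRC had a median of -0.21 over the same genes.

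Pcdhb13 had the largest difference toward endothelium within the beta cluster on the probes used, at -2.44, -0.96 and -0.85. Its second probe read -3.56, -2.78 and -4.49, with the last dim, so it kept LEC above FRC but placed BEC below FRC. Pcdhb21 leaned toward FRC, at 0.56, -0.53 and -1.38, 3.83-fold higher in FRC than in BEC. Pcdhb7 read 0.53, 1.17 and -0.14, and Pcdhb17 read 0.62, 0.86 and 0.82. Pcdhb11 was detected in FRC only, at -2.67. These examples were chosen after their values were seen. Sequence is shared within the cluster, and the Pcdhb18 probe lists Pcdhb17 and Pcdhb20 as well.

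In the alpha and gamma clusters some probes measure many genes together, since the transcripts of a cluster end in shared exons. The Pcdhga9 probe lists 4 gamma genes and read 5.99 in FRC, 4.997 in LEC and 5.36 in BEC, within 2-fold. Its 2 neighbours that list the same genes kept FRC highest, and the probe listing Pcdhga9 alone was dim on all arrays. The Pcdhac2 probe lists 4 alpha genes and read -1.47, -2.12 and -2.68. Its other 2 probes separated the arrays further, at -0.73, -2.93 and -4.98, and at -1.56, -3.69 and -3.61. They were 4.61-fold and 4.36-fold higher in FRC than in LEC. Against BEC the first was dim in BEC and the second was 4.12-fold higher in FRC. The Pcdhac2 and Pcdhga9 values therefore stand for several genes. Alpha and gamma probes that list 1 gene and were detected on all arrays were those of Pcdha6, Pcdha9, Pcdhga1, Pcdhga4 and Pcdhga7, of which Pcdhga1 leaned toward FRC (-2.53, -3.59 and -4.05) and Pcdha6 toward LEC (-3.71, -2.50 and -3.24).

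Of the catenins and catenin-named genes, 6 were detected on all arrays. They were Ctnna1, Ctnnb1 and Ctnnd1, and the catenin-named Ctnnal1, Ctnnbip1 and Ctnnbl1. On the probes used, all 6 read higher in LEC and in BEC than in FRC. Of all genes detected on all arrays, 52.7% read higher in LEC and 56.0% in BEC than in FRC. Over these 6 the medians were 0.85 and 1.40 log2 units. Over all genes compared, a wider set that includes genes dim on some arrays, they were 0.03 and 0.09. Other scalings gave 0.78 to 0.90 and 1.22 to 1.43. In each comparison 1 of the 6 was called, beside 9.2% and 12.2% of all genes detected on all arrays. After the spike-in slope correction, 5 of the 6 were higher in LEC. Ctnna1, alpha-catenin, read 3.99 in FRC, 5.69 in LEC and 5.31 in BEC, 3.24-fold and 2.50-fold higher in endothelium. Ctnnb1, beta-catenin, read 3.95, 4.72 and 5.15, and its probe printed on 10 spots read 2.21, 3.51 and 3.42 with spot SDs of 0.05, 0.03 and 0.06. Another Ctnnb1 probe, which lists no RefSeq transcript, read 0.27, 0.30 and -0.07. It was level between LEC and FRC and slightly lower in BEC. Ctnnd1, which binds the membrane-near part of the cadherin tail, read -1.55, -0.88 and 0.15, 3.26-fold higher in BEC than in FRC.

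The catenin-named genes with other roles gave the calls. Ctnnal1, an alpha-catenin relative, read 0.70 in FRC, 3.13 in LEC and 2.18 in BEC, with LEC 5.42-fold above FRC. All 4 of its probes had LEC highest. Ctnnbip1, which blocks beta-catenin from binding TCF factors, read 1.00, 1.29 and 3.90 and was highest in BEC, 7.47-fold above FRC and 6.11-fold above LEC, from 1 probe at chr4:148940453-148940512. Ctnnbl1 (0.79, 1.71 and 1.28) stayed within 2-fold. Ctnnd2, a catenin known from neurons, was detected in LEC alone at -3.08, and Ctnna2 and Ctnna3 were dim everywhere.

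Of 27 junction partners on the array, 26 could be compared. Between LEC and FRC, 8 were called higher in LEC and 2 in FRC, and between BEC and FRC 8 were called higher in BEC and 3 in FRC. These are 30.8% and 7.7%, then 30.8% and 11.5% of those compared, beside 4.89%, 5.93%, 6.58% and 7.57% of all genes. Between LEC and BEC, 2 were called in each direction, or 7.7%, beside 3.39% and 3.38%. Jup, plakoglobin, the catenin shared by classical and desmosomal cadherins, read -2.78 in FRC, -0.61 in LEC and 0.36 in BEC, 4.50-fold and 8.80-fold higher in endothelium. Ptprb, the phosphatase that associates with VE-cadherin, read 0.28, 6.22 and 6.64, 61.5-fold and 82.2-fold higher. Pkp4, a plakophilin of adherens junctions, read -1.12, 1.82 and 3.56, and Mllt4, the nectin-binding afadin gene, 0.56, 3.104 and 4.34. The scaffold Magi1 (-1.22, 1.94 and 3.03) and the phosphatase Ptprm (-1.71, 1.69 and 1.42) were called in both endothelia, Pkp3 in BEC (-3.73, -1.75 and -0.41) and the polarity gene Pard6g in LEC over both others (2.22, 4.62 and 2.42). Its partner Pard3 (1.25, 1.80 and -0.93) was lower in BEC than in both others, and Pard6b was at least 4.93-fold higher in FRC than in BEC. Ptprj was 5.30-fold and Eps8 at least 16.9-fold higher in FRC than in LEC, and Eps8 was also called in BEC over LEC. Pvrl4 was 4.45-fold higher in BEC than in LEC. Among the other nectins, Pvrl2 was high in endothelium (-0.06, 4.42 and 3.29), whereas Pvrl3 leaned toward FRC (2.80, 0.93 and 1.24) without a call. Vcl, vinculin, was level at 2.06, 2.29 and 2.12. Pvrl3 and Vcl are named after their values were seen.

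Of 14 transcription partners and targets of beta-catenin, 12 could be compared. Against FRC, 1 was called higher in LEC and 2 lower (8.3% and 16.7%), and 0 were higher in BEC and 3 lower (25%), beside the shares of all genes just given. Axin2 and Nkd1, feedback targets of beta-catenin signalling, were called higher in FRC than in both endothelia. Axin2 read -1.41 in FRC, -4.45 in LEC (dim) and -3.44 in BEC, from 1 probe, and Nkd1 read 2.14, -0.03 and -0.34. On the same list, Tcf7 (-0.565, -0.965 and 0.517) was highest in BEC and Lef1 (-3.38, -3.85 and -3.63) was within 2-fold, both without a call. Notum and Lgr5 were dim on all arrays. Tcf7, Lef1, Notum and Lgr5 are named after their values were seen. Apc, a scaffold of the complex that degrades beta-catenin, was called in LEC, 6.07-fold above FRC. Gsk3b, the kinase of that complex, was 5.24-fold higher in FRC than in BEC and 6.26-fold higher in LEC than in BEC.

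All 6 cadherin repressor genes were compared, and 4 were called higher in FRC than in LEC and 2 higher in FRC than in BEC, or 66.7% and 33.3% beside 5.93% and 7.57% of all genes. Twist2 read 2.40 in FRC, -2.82 in LEC and -3.82 in BEC, 37.2-fold and 74.8-fold higher in FRC. Zeb2 read 3.71, 1.17 and 0.22. Twist1 was at least 4.45-fold higher in FRC than in LEC, and Zeb1, named after its values were seen, was within 2-fold at 2.33, 2.85 and 2.56. Snai2 separated the endothelia, with 3.66 in FRC and 3.01 in BEC against -0.80 in LEC, 14.0-fold higher in BEC than in LEC, and Snai1 (0.93, 0.11 and 2.36) was 4.76-fold higher in BEC than in LEC. Among 5 genes of cadherin shedding, Adam10, which cleaves the cadherin ectodomain, was 4.53-fold above FRC in LEC, as Psen2 was 6.26-fold, and Adam15 was 4.21-fold higher in BEC than in LEC.

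Other probes of the called members were compared with the probe used. Between LEC and FRC, 9 of the 14 called members had another probe well above background, and for 7 of these every such probe had the same direction. The exceptions were Cdh13 and Fat1, each through a probe that lists no RefSeq transcript. Between BEC and FRC the figures were 7 of 14 and all 7. Between LEC and BEC, 1 of 5 called members, Pcdh19, had another such probe, and it did not follow.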

How the data were processed

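Total RNA of sorted cells was amplified in 1 round and hybridised to single-colour Agilent arrays, 1 per population, per the labels' protocols. The deposited scanner files hold intensity values. Per the submitters' processing notes the software was Agilent Feature Extraction 10.7.3.1; per the file headers it subtracted background, detrended each array and replaced low signals with surrogates. The deposited scanner marks used (well above background, outlier) and the authors' series matrix, also linear intensity, entered as flags and as an alternative. Probe positions are on mm9 per the file headers.

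Outlier spots were dropped, spots of a probe averaged, and log2 signals scaled to the 75th percentile of each array with Python 3.11.15 and pandas 2.3.3. Normexp used limma 3.58.1 with an offset of 50. Percentages detected were 60.5, 59.7 and 60.1 of probes on the FRC, LEC and BEC arrays. The number of arrays limits the precision. Spot SDs had medians of 0.07, 0.08 and 0.09 and cover spot error only. Calls and bounds follow the rules given with the results. The steps were tested on simulated data.

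Members and lists were chosen with earlier results of these data known. The named genes, by rule, were all detected members outside the clusters, clustered ones called at 4-fold, and pathway-list genes that were called or defining; marker lists are given as counts with examples, and others are said to be chosen after their values were seen. Gene names were updated through RefSeq accessions of GRCm38.p6.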

Additional observations from a re-analysis of the deposited data

Results flagged for a closer look

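Probes that the comparisons did not use carried signal that differed from the probe used for the gene. For Cdh11, the probes listing that gene alone gave LEC minus FRC differences of -3.50 and -3.83 and BEC minus FRC differences of -6.31 and -6.38 on the log2 scale, against 1.64 and 1.31 on the brighter probe that also lists pseudogenes. For Celsr2, a probe not used gave 2.09 for LEC minus BEC, against -0.20 on the probe used.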

How the results depend on the processing

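No paired analysis was possible because each population had 1 array, and no replicate could be left out. Quantile and median scaling, the authors' series matrix values and keeping outlier spots left every count of calls and every named difference on its side of 4-fold. Normexp gave 3 members higher in FRC than in LEC, 4 higher in FRC than in BEC, 0 higher in LEC than in BEC and a BEC minus FRC median of -0.032. Members compared were 77, 77 and 67, and over all genes 636 of 18441, 854 of 18833 and 287 of 18325 were called in these directions. No filter on dim probes gave 13, 14 and 6 of 98 members, with medians of 0.13 for LEC minus FRC and -0.11 for BEC minus FRC. Over all 28084 genes it gave 1437, 1935 and 1019. Requiring both arrays above background gave 4 of 61, 3 of 57 and 1 of 57 members, with medians of 0.53 and 0.37. Over all genes it gave 841 of 16176, 1019 of 15993 and 488 of 16277. Averaging detected probes gave 1 of 67 members higher in LEC than in BEC, beside 574 of 18325 genes. At 2-fold the counts were 17 in LEC and 15 in FRC, 16 in BEC and 19 in FRC, and 11 in LEC and 9 in BEC. At 8-fold they were 3 and 5, 4 and 5, and 1 and 1. Members compared were again 77, 77 and 67. Over 18441, 18833 and 18325 genes, the 2-fold counts were 2397 and 2459, 3158 and 3104, and 2009 and 1864. The 8-fold counts over these genes were 449 and 583, 631 and 748, and 201 and 251. The spike-in slope correction, chosen after seeing the data, gave 10 higher in LEC than in FRC, 4 higher in LEC than in BEC, and medians of 0.60 and 0.12 for LEC and BEC minus FRC and 0.53 between the endothelia. Over all genes it gave 1380 of 18441 higher in LEC than in FRC and 772 of 18325 higher in LEC than in BEC. Calls higher in LEC over FRC were 42.9% of all calls between them, 66.7% with normexp, 35.0% with no filter and 60% with the strict one. For BEC over FRC they were 42.9%, 55.6%, 30.0% and 62.5%, and for LEC over BEC 40.0%, 0.0%, 60% and 33.3%. Cdh11 reversed: BEC minus FRC was -3.80 averaged over probes, and with probes naming a single gene, also chosen after seeing the data, it was -6.31 and LEC minus FRC -3.50, since other probes then stand for the gene. Over 10 settings, 516 differences of 19 named members were read. Of these, 487 kept their call or their lack of one, 19 lost a call (13 with normexp), 7 gained one and 3 reversed. A change of sign counted as reversed only with a call in the main or the other setting. The 487 can therefore include uncalled differences that changed sign. The cause of the changes was not tested. Signals near background limit the members given as bounds.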
